A study of Homo sapiens with 12 samples.

Results

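The transcripts described here are those of 8 protein kinases that phosphorylate SR proteins and related splicing factors: CLK1, CLK2, CLK3, CLK4, SRPK1, SRPK2, DYRK1A and PRPF4B. They were taken by symbol from a table of 59653 genes, and all 8 were present and passed the filter on low counts, which kept 24671 genes. The libraries were made from total RNA of human neurons that had been differentiated from induced pluripotent stem cells. These stem cells came from IMR-90, a fibroblast line. In the control group (siNC, 6 libraries) the cells received a negative control siRNA, and in the other group (siZCC, 6 libraries) an siRNA against ZCCHC17, which encodes an RNA-binding protein with a CCHC zinc knuckle. All cells therefore share 1 line and an siRNA treatment; the time after treatment and the siRNA sequences are not given in the labels, and the sample titles carry the letters NPC although the cell type is given as neuron. The labels number the replicates but do not say whether they were separate cultures, so p-values measure the spread between these libraries, which may be technical.

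SR proteins are splicing factors with a domain rich in arginine and serine, and phosphorylation of those serines decides where they sit and what they bind. The SRPK kinases act mainly in the cytoplasm, where they load phosphates onto new SR proteins so that transportin-SR carries them into the nucleus. The CLK kinases act in the nucleus, where further phosphorylation releases SR proteins from speckles to sites of transcription, and CLK transcripts are themselves known for regulated intron retention. DYRK1A, encoded on chromosome 21, phosphorylates splicing factors, tau and cell cycle regulators, and PRPF4B phosphorylates proteins of the tri-snRNP as the spliceosome assembles.

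Of the 8 kinases, CLK1 and SRPK1 were lower in siZCC and none was higher. At the same threshold, 10.8% of all genes tested were lower and 11.4% higher (22.2% in either direction), so this count is near the background. CLK1 fell to 0.888 of its control level, a log2 fold change of -0.17 (SE 0.0303), with every siZCC library below every siNC library. Such a separation, with siZCC lower, was seen in 4.50% of all genes tested. SRPK1 fell to 0.939 of its control level, a log2 fold change of -0.09 (SE 0.0310), and this call was lost in 9 of the 12 fits that left out 1 library. CLK2, CLK3, CLK4, SRPK2, DYRK1A and PRPF4B did not pass the test. These changes are small beside that of the target: ZCCHC17 stood at 53.99 to 61.0 CPM (counts scaled to the size of each library) in siNC and at 9.37 to 10.6 CPM in siZCC.

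Promoter sequence is shown for CLK1, the kinase whose change was clearest, and for CLK4, whose ratio to CLK1 separated the groups in every library. Both stretches are from RefSeq on GRCh38.p14, lie upstream of a RefSeq start site and outside GENCODE v29 exons, and are read 5′ to 3′ on the minus strand. CLK1 covers chr2:200864745-200864908 and CLK4 covers chr5:178627115-178627300, inside the GENCODE model of the gene. Capitals mark matches on either strand to a GC box (GGGCGG), an E-box (CACGTG), the cell cycle homology region or CHR (TTTGAA), or the NRF1 element.
CLK1: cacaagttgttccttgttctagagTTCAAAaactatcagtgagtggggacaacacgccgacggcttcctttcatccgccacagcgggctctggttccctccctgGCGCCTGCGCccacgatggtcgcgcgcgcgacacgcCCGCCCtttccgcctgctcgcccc
CLK4: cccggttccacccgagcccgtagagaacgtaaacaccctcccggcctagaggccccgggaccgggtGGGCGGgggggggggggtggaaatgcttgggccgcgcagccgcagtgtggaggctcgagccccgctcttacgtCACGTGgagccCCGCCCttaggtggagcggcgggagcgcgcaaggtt

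RefSeq promoter windows were found for 7 of the 8 kinases, all but PRPF4B. Within the 250 bases before each start site, the NRF1 element, named for a factor that regulates many housekeeping and mitochondrial genes, was matched in CLK1 and SRPK1 and in none of the windows of CLK2, CLK3, CLK4, SRPK2 and DYRK1A. The element occurred in 5.07% of all 35116 windows of this length, the GC box in 42.6%, the E-box in 6.34% and the CHR in 13.3%. CCAAT, CRE (TGACGTCA), ETS (CCGGAA) and E2F (TTTNGCGC) letters were searched as well. A match describes letters in a window and is not evidence of binding. The element is given in capitals with 10 bases on each side, and was picked, with the calls known, because windows of the 2 kinases called lower hold it and those of the other 5 do not; both also hold the GC box, as windows of the other 5 do. CLK1 is at chr2:200864785-200864814 and SRPK1 at chr6:35921176-35921205, both on the minus strand.
CLK1 element: tccctccctgGCGCCTGCGCccacgatggt
SRPK1 element: cgcgcccaacGCGCAAGCGCgcggcatcgt

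The libraries held 76115083 to 120023356 counts, and all 6 siZCC totals lay below those of 5 of the 6 siNC libraries. Neuron markers were present (MAP2 at a mean of 1030 CPM, DCX at 601 CPM, STMN2 at 456 CPM). TUBB3 was lower at 14.2 CPM, and RBFOX3, a marker of mature neurons, stood at 1.21 CPM. Some markers of neural progenitors and astroglia were also high (VIM at 3572 CPM, SOX2 at 668 CPM, GFAP at 634 CPM). Others of these lists were low (HES5 at 6.95 CPM, ALDH1L1 at 2.57 CPM). The cultures may have been mixed, but bulk values do not measure this. Microglial markers summed to 1.18 to 2.25 CPM. No marker of any of the 8 lists was at 0 in every library. The 5 markers of dividing cells (MKI67, TOP2A, CCNB1, CDK1, BIRC5) were all called lower in siZCC, summing to 514 to 591 CPM in siNC and 395 to 467 CPM in siZCC. The summed pluripotency markers were at 15.4 to 17.0 CPM in siNC and 19.99 to 21.9 CPM in siZCC, mostly through DPPA4 (4.36 to 8.08 CPM in the group means), the only 1 of the 3 tested whose groups did not overlap. Neural markers moved in both directions: of 10 neuron markers 1 was called higher and 3 lower, of 7 progenitor markers 3 and 1, and of 6 astrocyte markers 2 and 1. Over all genes tested, 11.4% were called higher and 10.8% lower, and the groups did not overlap in 9.74%. Among these neural markers, groups did not overlap for DCX (log2 fold change -0.23), NEFM (-0.16), FABP7 (-0.31), SOX2 (0.20) and SLC1A3 (0.30). The part of these markers in the kinase results was not tested. In bulk libraries, fewer cells of a type and less RNA per cell cannot be told apart. The libraries also differ in IL1B, with 2 to 12 counts in 6 libraries and 449 to 1512 in the other 6, and each set holds 3 libraries of either group; values within each set are given for the kinases called.

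The level of each kinase was scaled to its exon length and to the library, in TPM (transcript counts as a share of the library). SRPK2, the SRPK family member known for its abundance in brain, was highest at 96.3 ± 1.88 TPM in siNC (SD, n = 6). CLK1 (61.5 ± 1.69), PRPF4B (61.4 ± 3.72) and CLK2 (56.7 ± 2.82) followed, and the ranges of PRPF4B over libraries (56.9 to 65.9) overlapped those of both neighbours. SRPK1 stood at 39.4 ± 1.001 and CLK4 at 17.3 ± 0.925, each apart from its neighbours in every library. DYRK1A (12.6 ± 0.521) and CLK3 (11.5 ± 0.385) were lowest per exon length, and their ranges overlapped slightly. Their exons cover 26602 and 20443 bases, against 3670 to 7924 for the other kinases. Without scaling to length, DYRK1A (78.7 CPM in siNC) stood above CLK1 (74.8 CPM). CLK3 (55.1 CPM) then stood above CLK2 (48.9 CPM) and CLK4 (32.3 CPM). In siZCC the order per exon length was the same but for CLK1, which moved from the second place to the fourth. CLK1 stood there at 53.7 ± 2.74, behind PRPF4B (56.5 ± 2.705) and CLK2 (53.9 ± 2.41), with overlapping ranges. The order depends on the length used: over the longest transcript in place of all exons, CLK1 rose to 75.1, PRPF4B dropped to 53.95, below CLK2 (58.3), and CLK3 (16.9) passed DYRK1A (14.4) in siNC. In siZCC, CLK1 then kept the second place at 65.6, ahead of CLK2 (55.5) and PRPF4B (49.6), so its change of place was not seen with that length.

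**Figure D1:**
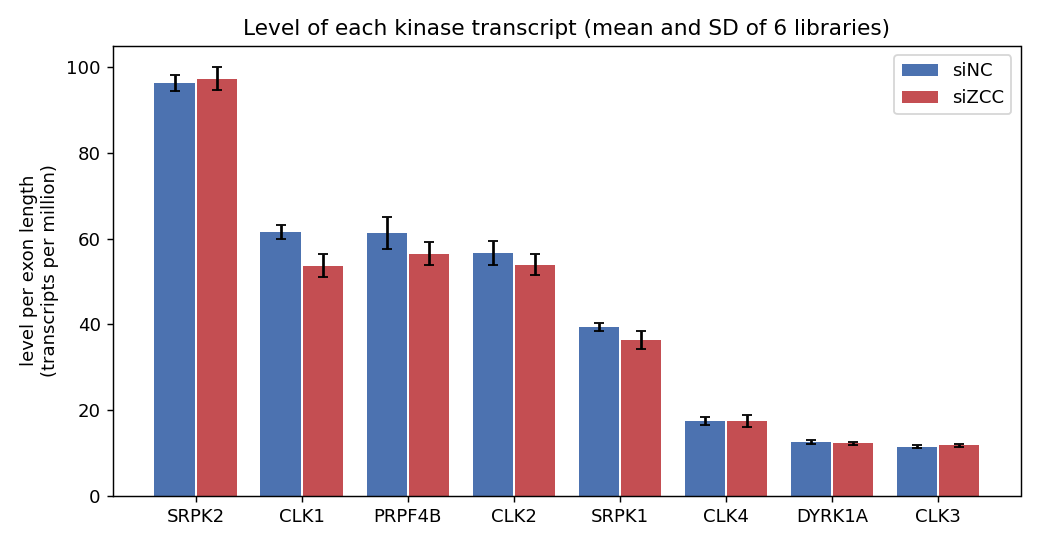
Bars give the mean level per exon length (TPM) of each kinase in the 6 siNC and the 6 siZCC libraries, and error bars give the SD. SRPK2 is highest at about 96.3 and 97.3, and CLK3 and DYRK1A are lowest, between 11.5 and 12.6.

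The CLK family was examined first. CLK1 (ENSG00000013441.15, chr2:200853009-200864744, minus strand) is the founding dual-specificity kinase of the family. In siNC it was measured at 74.7, 72.4, 73.9, 75.7, 76.2 and 76.1 CPM in replicates 1 to 6. In siZCC it was measured at 68.2, 71.3, 64.9, 64.004, 66.1 and 64.3 CPM. The groups did not overlap, and siZCC replicate 2 lay nearest to the controls. The means were 74.8 ± 1.49 and 66.5 ± 2.82 CPM (SD, n = 6 each), and the log2 fold change of -0.17 had a 95% interval of -0.23 to -0.11 and an adjusted p of 7.46e-04 (quasi-likelihood test of edgeR, Benjamini-Hochberg over all genes). A two-sided exact permutation of the 12 libraries returned p = 0.00216, the lowest value open to groups of 6. Within the 6 libraries of high IL1B the log2 fold change was -0.17 (adjusted p 0.0385) and within the 6 of low IL1B -0.18 (adjusted p 0.0481), by the same test. Every alternative of processing and every fit without 1 library kept the call.

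None of its relatives passed the test. CLK4 (ENSG00000113240.12, chr5:178602664-178630615, minus strand), a closely related nuclear kinase, stood at 32.6, 32.2, 29.6, 32.2, 33.7 and 33.6 CPM in siNC and at 31.99, 37.1, 32.6, 32.1, 30.4 and 33.6 CPM in siZCC. The groups overlapped throughout, with siNC replicate 3 the lowest library and siZCC replicate 2 the highest. Its log2 fold change was 0.03 (SE 0.0443, 95% interval -0.06 to 0.12, adjusted p 0.690 by edgeR's test).

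CLK2 (ENSG00000176444.18, chr1:155262868-155278491, minus strand), also known as a kinase of insulin and mTOR signalling, ran from 45.3 to 52.8 CPM in siNC and from 45.3 to 49.5 CPM in siZCC. Its log2 fold change was -0.05 (SE 0.0373, 95% interval -0.13 to 0.03, adjusted p 0.410 by edgeR's test). CLK3 (ENSG00000179335.18, chr15:74598500-74645414, plus strand) ran from 52.4 to 57.6 CPM in siNC and from 55.5 to 59.8 CPM in siZCC. All 6 siZCC libraries lay above the control median for CLK3, yet the log2 fold change of 0.06 (SE 0.0302, 95% interval -0.00457 to 0.12) did not pass (adjusted p 0.179 by edgeR's test). The intervals limit a change of either gene to about 0.13 on the log2 scale.

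**Figure D2:**
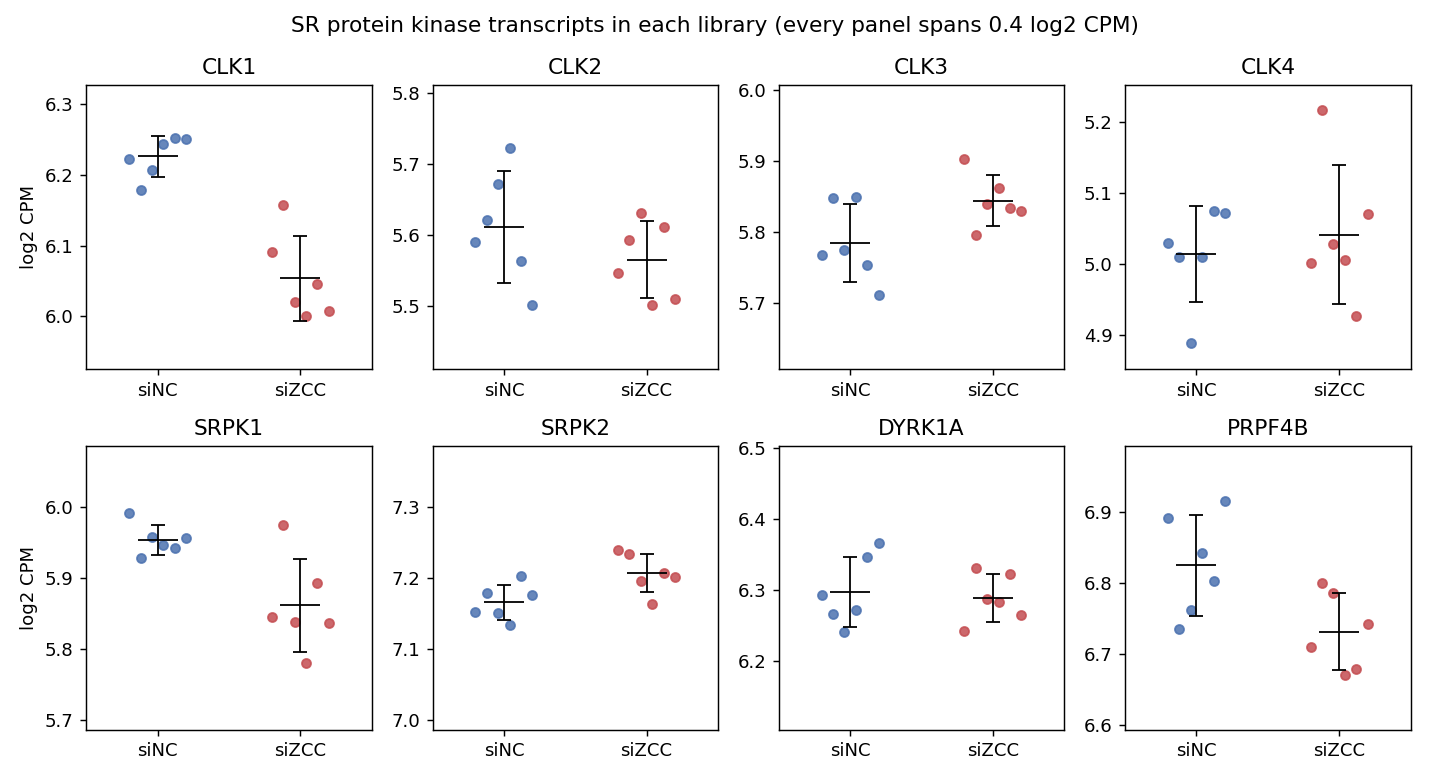
Each point is the log2 CPM of 1 kinase in 1 library, siNC in blue and siZCC in red, and the black marks give the mean and SD of 6 libraries; every panel spans 0.4 log2 units around its own centre. The CLK1 groups are separated (6.18 to 6.25 against 6.00 to 6.16), while those of the other 7 kinases overlap.

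The SRPK kinases came next. SRPK1 (ENSG00000096063.15, chr6:35832966-35921342, minus strand) was measured at 63.6, 60.9, 62.1, 61.7, 61.5 and 62.1 CPM in siNC and at 57.5, 62.9, 57.2, 54.98, 59.4 and 57.2 CPM in siZCC. In siZCC, 5 of 6 libraries lay below every control, and replicate 2 lay above 5 of the 6 controls. The means were 62.0 ± 0.930 and 58.2 ± 2.699 CPM (SD, n = 6 each), so the spread was wider in siZCC. The log2 fold change of -0.09 had a 95% interval of -0.16 to -0.03 and an adjusted p of 0.0436 (edgeR's quasi-likelihood test), and the exact permutation test gave p = 0.0130. For SRPK2 and CLK3, both higher in siZCC, the exact permutation test gave p = 0.0260 and p = 0.0498. For PRPF4B, which was lower, the exact permutation test gave p = 0.0325. For CLK2, CLK4 and DYRK1A the exact permutation test gave p = 0.264 to 0.701. These permutation p-values are not adjusted for the number of kinases.

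The SRPK1 call sits at the threshold. Without siZCC replicate 2 the log2 fold change was -0.11 (adjusted p 0.00563), while 9 other omissions raised the adjusted p to between 0.0567 and 0.115 by edgeR's test (replicates 1, 3, 4, 5 and 6 of siNC; replicates 1, 3, 4 and 6 of siZCC). With the replicate number as a block the adjusted p was 0.0792. Within the libraries of high IL1B the log2 fold change was -0.11 (adjusted p 0.141) and within those of low IL1B -0.08 (adjusted p 0.375), with 3 libraries a group.

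SRPK2 (ENSG00000135250.16, chr7:105110704-105399308, minus strand), the neuronal paralogue of SRPK1, was measured at 142.2, 144.97, 142.2, 140.5, 147.4 and 144.6 CPM in siNC. In siZCC it was measured at 151.1, 150.5, 146.7, 143.4, 147.9 and 147.3 CPM. All 6 siZCC libraries lay above the control median and 3 above every control. The log2 fold change of 0.04 (SE 0.0242, 95% interval -0.00982 to 0.09) did not pass (adjusted p 0.245), although with offsets for GC content and length it reached 0.06 (adjusted p 0.0462, both by edgeR's test).

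DYRK1A and PRPF4B make up the remaining pair. DYRK1A (ENSG00000157540.20, chr21:37365573-37526358, plus strand) ran from 75.6 to 82.5 CPM in siNC and from 75.7 to 80.5 CPM in siZCC. Its groups overlapped almost wholly, with a log2 fold change of -0.00924 (SE 0.0287, 95% interval -0.07 to 0.05, adjusted p 0.858 by edgeR's test). PRPF4B (ENSG00000112739.16, chr6:4021267-4064983, plus strand) was measured at 118.7, 106.4, 108.5, 114.7, 111.5 and 120.7 CPM in siNC and at 104.6, 111.4, 110.3, 101.8, 102.4 and 107.0 CPM in siZCC. All 6 siZCC libraries lay below the control median and 3 below every control. The PRPF4B log2 fold change of -0.09 (SE 0.0354, 95% interval -0.17 to -0.02) was as large as that of SRPK1 but missed the threshold (adjusted p 0.0670), and it passed without siNC replicate 2 or 3 or siZCC replicate 2 (adjusted p 0.0327 to 0.0476 by edgeR's test).

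**Figure D3:**
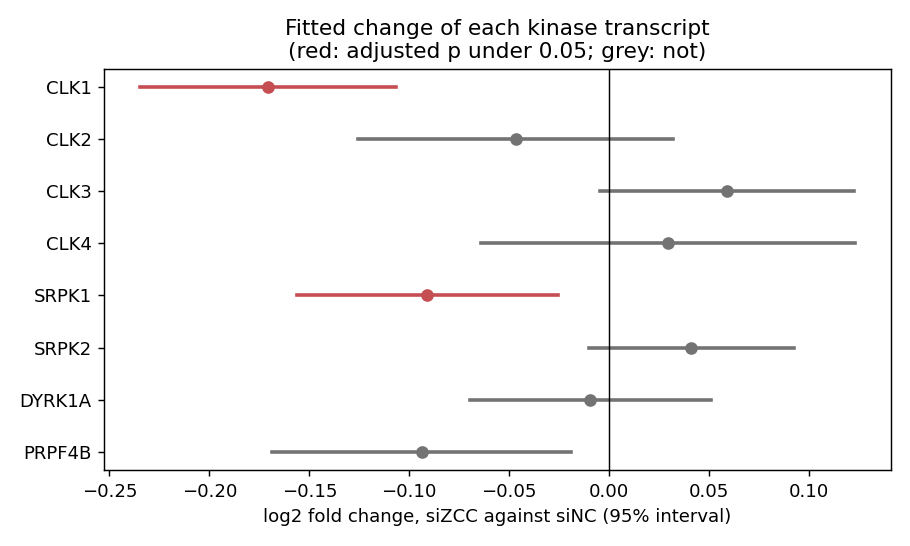
Points give the fitted log2 fold change of each kinase, siZCC against siNC, and lines its 95% interval; red marks an adjusted p under 0.05. CLK1 (-0.17) and SRPK1 (-0.09) are called, and the interval of PRPF4B (-0.17 to -0.02) also lies below 0 although its adjusted p is 0.0670.

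Of the 8 kinases, 2 were called lower and 0 higher at an adjusted p under 0.05, and over all genes tested 10.8% were called lower and 11.4% higher (22.2% in either direction). A count of 2 of 8 is near the background in either direction and is not a result about the kinases as a group. Their median log2 fold change was -0.03 against -0.00164 for all genes. For 1 of the 8, CLK1, the siZCC libraries all lay below the siNC libraries, and none lay wholly above; over all genes the groups did not overlap in 9.74%, with siZCC lower in 4.50% and higher in 5.25%. The lowest count of any kinase in any library was 2403, for CLK4. How much of these errors came from counting and how much from the spread between replicates was not tested.

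Because a ratio of 2 transcripts within a library does not depend on how libraries are scaled, the responses of family members were compared as log2 ratios, in 7 pairs (exact permutation test, two-sided, Benjamini-Hochberg over the 7). The CLK1/CLK4 ratio was 1.19, 1.17, 1.32, 1.23, 1.18 and 1.18 in siNC and 1.09, 0.941, 0.993, 0.996, 1.12 and 0.937 in siZCC. The groups did not overlap; the ratio was lower in siZCC by 0.20 on average (SE 0.0391, exact p = 0.00216, adjusted p 0.0101, lower in 6 of 6 libraries). The CLK1/CLK3 ratio averaged 0.44 ± 0.0742 in siNC and 0.21 ± 0.0779 in siZCC (SD, n = 6 each). This difference of -0.23 (SE 0.0439) was the largest of the 7 pairs, with 5 of 6 siZCC libraries below every control (exact p = 0.00433, adjusted p 0.0101). CLK1 therefore fell relative to both CLK3 and CLK4, by a test of the difference itself.

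For the SRPK pair, the SRPK1/SRPK2 ratio ran from -1.26 to -1.16 in siNC and from -1.39 to -1.26 in siZCC. It was lower in siZCC by 0.13 on average (SE 0.0260, exact p = 0.00433, adjusted p 0.0101), with 5 of 6 libraries below every control. The mean balance of the SRPK paralogues was thus lower in siZCC, with only siZCC replicate 2 inside the range of the controls. SRPK1 itself was only just called and SRPK2 was not called. These 3 ratios passed without any 1 library and moved in the same direction within the libraries of high and of low IL1B, where they changed by -0.15 and -0.24 (CLK1/CLK4), -0.25 and -0.21 (CLK1/CLK3) and -0.14 and -0.12 (SRPK1/SRPK2). Permuting only within replicate numbers, which allows no p under 0.0312, gave an adjusted p of 0.0875 for each of them.

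The other CLK pairs were less clear. CLK1/CLK2 was lower by 0.13 on average (SE 0.0461, exact p = 0.0238, adjusted p 0.0333) and CLK2/CLK3 by 0.11 (SE 0.0365, exact p = 0.0216, adjusted p 0.0333). CLK1/CLK2 missed the threshold when any of 7 libraries was left out (adjusted p 0.0606 to 0.0758; replicates 1, 5 and 6 of siNC and 3, 4, 5 and 6 of siZCC). CLK2/CLK3 missed it for any of 5 libraries (adjusted p 0.0606 to 0.0788; replicates 1, 3, 4 and 5 of siNC and 4 of siZCC). CLK2/CLK4 and CLK3/CLK4 did not pass (exact permutation test, adjusted p 0.384 and 0.621), with differences of -0.07 (SE 0.0711) and 0.03 (SE 0.0646).

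**Figure D4:**
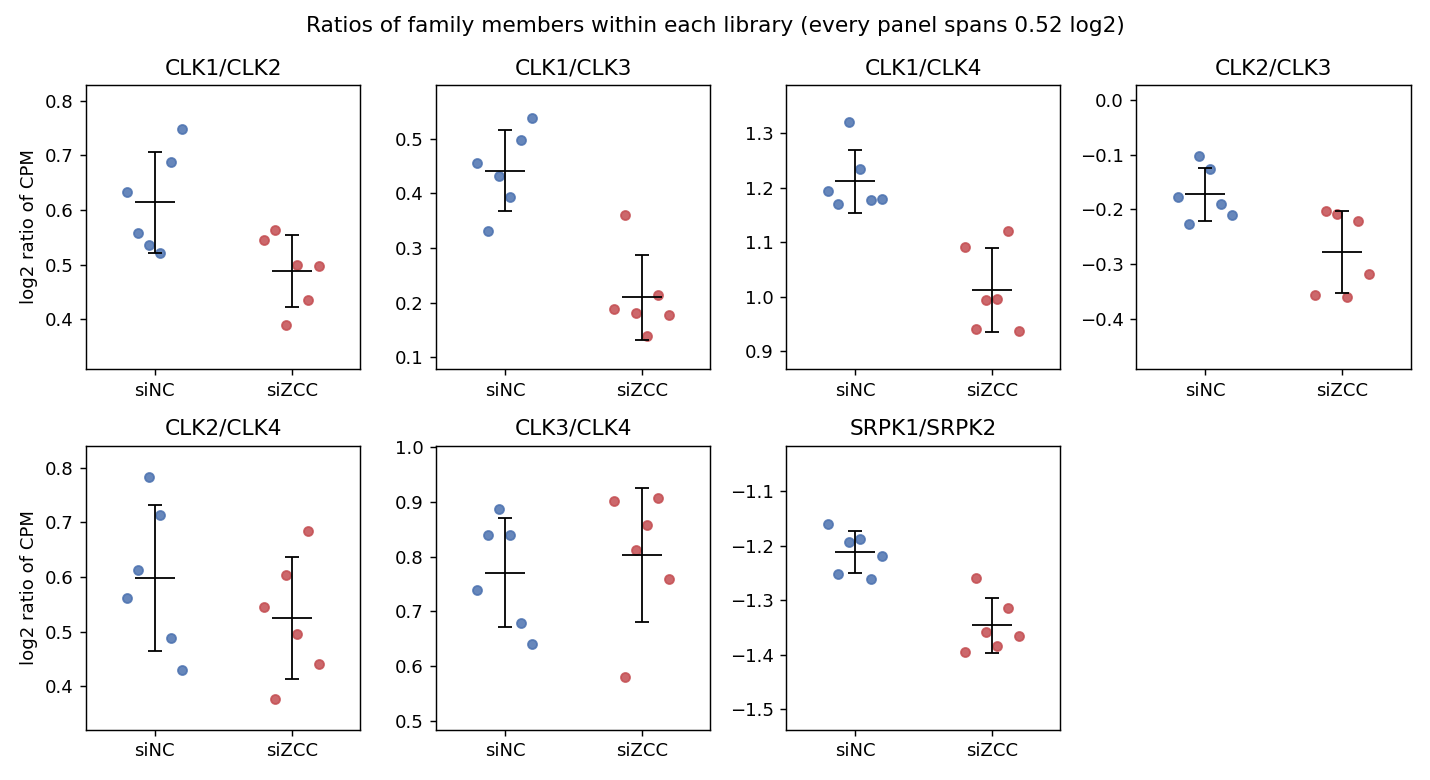
Each point is the log2 ratio of the CPM of 2 family members in 1 library, siNC in blue and siZCC in red, with the mean and SD of 6 libraries in black; every panel spans 0.52 log2 units. The CLK1/CLK4 groups are apart (1.17 to 1.32 against 0.937 to 1.12), and CLK1/CLK3 and SRPK1/SRPK2 have 5 of 6 siZCC libraries below every control.

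Beyond the group difference, the kinases were compared in how they varied from library to library, as deviations from the group mean of log2 CPM over 12 libraries. None of the 28 pairs passed after adjustment (permutation test, smallest adjusted p 0.231 for Pearson's r and 0.205 for Spearman's rho). CLK1 and SRPK1 had r = 0.76 and rho = 0.64 (permutation p = 0.0248 and 0.0400), but r dropped to 0.25 without the 2 libraries farthest from the CLK1 median, so the relation rests on those libraries. CLK3 and DYRK1A had r = -0.74 and rho = -0.76 (permutation p = 0.0168 and 0.0146), and r = -0.75 without the 2 farthest libraries. The gene whose log2 CPM over the 12 libraries was most like that of a kinase, among the 12625 genes averaging 5 CPM or more, was ATMIN for CLK1 (r = 0.98), PRKAA1 for PRPF4B (r = 0.98), MAP4K3 for DYRK1A (r = 0.95), RGMB for SRPK2 (r = 0.94), RBM26 for CLK4 (r = 0.94), DGKQ for CLK3 (r = 0.94) and RNF207 for CLK2 (r = 0.93). These are the highest of many values and describe likeness over 12 libraries of 2 groups.

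The gene models bear on what a count per gene can show. GENCODE v29 annotates 8 retained-intron transcripts for CLK1, 8 for CLK3 and 7 for CLK4, but 0 for CLK2; the median over 15256 protein-coding genes tested was 1, and 4.94% of them had 7 or more. SRPK1 and DYRK1A have 4 each, SRPK2 has 2 and PRPF4B has 1. The table gives 1 count per gene, so the share of CLK transcripts that retain introns was not analysed here, and a lower CLK1 count does not say which of its forms fell.

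Reads of the kinases are little shared with other genes. Of all 50-base words in the annotated transcripts of each kinase, 0 (SRPK1) to 3.27% (CLK2) also occur on the same strand in transcripts of another gene, and for CLK1 the share is 0.0546%. The words of CLK2 are shared with its processed pseudogene CLK2P1, which had 6 to 19 counts. On the opposite strand, 5.83% of the words of CLK3 occur in other genes, with 2.89% in the overlapping EDC3 (log2 fold change -0.02, adjusted p 0.539 by edgeR's test), 2.05% in AC100835.2 and 0.624% in AC100835.1, and 3.15% of those of SRPK1, whose exons overlap those of LHFPL5. LHFPL5 had 79 to 152 counts, against 4118 to 7381 for SRPK1. For SRPK2 the share on the opposite strand is 2.3%, with 0.773% in the overlapping KMT2E (195 CPM in siNC and 187 CPM in siZCC). For DYRK1A it is 1.56%. Whether the authors counted by strand is not given in the sources used here. Values of CLK3, SRPK1, SRPK2 and DYRK1A could therefore hold some reads of such genes.

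The SR proteins themselves, the substrates of the kinases, were mostly lower. Of 14 SR proteins, 9 were lower, 0 higher, and all 14 had a negative log2 fold change (median -0.10, against -0.00164 over all genes, of which 10.8% were called lower and 11.4% higher). The largest was that of SRSF3, the smallest SR protein, at -0.33 (SE 0.0328), from 176 ± 7.53 to 139.99 ± 4.83 CPM (SD, n = 6 each). SRSF1, the first SR protein described and a main substrate of SRPK1 and CLK1, changed by -0.27 (SE 0.0467), from 42.8 ± 2.62 to 35.5 ± 2.35 CPM. SRSF2 (-0.17), SRSF8 (-0.17), TRA2A (-0.16) and SRSF6 (-0.15) changed about as much as CLK1, and SRSF10 (-0.11), SRSF5 (-0.09) and TRA2B (-0.09) about as much as SRPK1. SRSF4, SRSF7, SRSF9, SRSF11 and SRSF12 did not pass, with values of -0.07 to -0.02. Whether more of this list than of the kinases was called was not tested. Among 9 SR-related proteins, 1 was higher and 2 lower: SRRM1, a splicing coactivator of nuclear speckles, at 0.11 (SE 0.0295), PNN at -0.13 (SE 0.0274) and ACIN1 at -0.08 (SE 0.0271).

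Of 9 genes of the phosphatases that remove these phosphates, 4 were lower and 1 higher. Over all genes tested, 10.8% were called lower and 11.4% higher, and whether this list differs from that was not tested. PPP1CA, a catalytic subunit of protein phosphatase 1, changed by -0.17 (SE 0.0323), as much as CLK1, and PPP1R8, a nuclear inhibitor of that phosphatase, by -0.09 (SE 0.0254). PPP1R10 and PPP2CA were also lower (-0.08 and -0.10), and PPP2CB, the second catalytic subunit of protein phosphatase 2A, was higher by 0.08 (SE 0.0292). The median of the list was -0.06.

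Of 13 related kinases, including the other DYRK genes, SRPK3, the HIPK genes and CDK11A, CDK11B, CDK12 and CDK13, 1 was lower and 0 higher, where 22.2% of all genes were called in either direction. It was DYRK1B, the paralogue of DYRK1A, at -0.14 (SE 0.0352), from 42.8 ± 1.57 to 38.97 ± 1.82 CPM (SD, n = 6 each) and without overlap of the groups. HIPK4 had the largest value, -0.65, but was near the detection limit at a fitted adjusted p of 0.121. The median of the list was 0.02.

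The last 3 lists hold partners of single kinases, and their counts are read against the same 22.2% of all genes. Of 9 import factors and chaperones, which include transportin-SR (TNPO3, log2 fold change 0.00413) and the heat shock proteins that hold SRPK1 in the cytoplasm, 1 was lower, the SRPK1 partner DNAJC8 at -0.09 (SE 0.0284). Of 12 tri-snRNP proteins, among them the PRPF4B substrates PRPF6 (0.04) and PRPF31 (0.00603), 1 was higher, the helicase SNRNP200 at 0.14 (SE 0.0308). Of 13 DYRK1A partners and members of the DREAM complex, which DYRK1A helps assemble by phosphorylating LIN52 and which represses cell cycle genes, 3 were lower and 0 higher, a share near that background. These were RCAN1, a calcineurin inhibitor on chromosome 21, at -0.20 (SE 0.0465), RBL1 at -0.18 (SE 0.0445) and TFDP1 at -0.12 (SE 0.0274). Adjusted p-values of the genes called in these lists (edgeR, as above) ran from 4.14e-06 for SRSF3 to 0.0488 for PPP2CB.

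**Figure D5:**
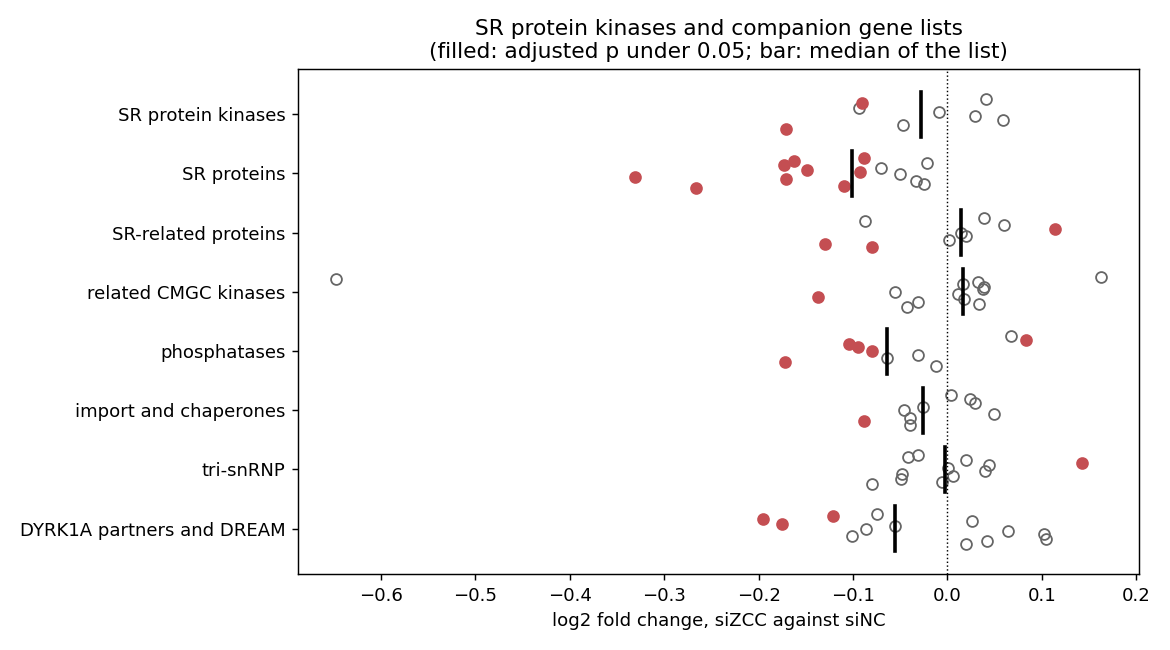
Each circle is the fitted log2 fold change of 1 gene, siZCC against siNC, by list; filled red circles have an adjusted p under 0.05 and black bars are the median of each list. The 14 SR proteins all lie below 0, 9 of them called, while 2 of the 8 SR protein kinases and 1 of the 13 related kinases are called.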

How the data were processed

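The authors deposited whole-number counts per gene symbol, 1 column per library; the submitters' processing notes name bcl2fastq 2.17, STAR 2.7.6a, featureCounts 2.0.1 and GRCh38, and the annotation and strand setting are not given in the sources used here. Groups and replicate numbers came from the sample titles. The kinases and gene lists were chosen with earlier results of these data known. Counts were filtered by filterByExpr, scaled by TMM and tested over all genes kept with edgeR 4.0.16 (glmQLFit, glmQLFTest; R 4.3.3), with Benjamini-Hochberg adjustment and a threshold of 0.05; the fit was tested on simulated data. SE is the log2 fold change divided by the square root of F. CPM are TMM-scaled, and log2 CPM has a prior count of 2. GENCODE v29 matched 92.2% of symbols and gave positions and lengths. Exact permutation tests ran over all 924 assignments of libraries. Correlations used 100000 permutations within groups (scipy 1.17.1). Same-numbered libraries did not deviate together (r -0.08 to 0.02), and the main fit used no pairing. Such a correlation cannot exclude that they were handled in pairs. In every numbered pair, 1 library was in the high IL1B set and the other in the low set. Alternatives were other scalings and filters, DESeq2 1.42.0, limma 3.58.1 voom, a replicate block, leaving out libraries and, added after seeing the data, thinning, GC and length offsets and the IL1B split. Named genes were the kinases, ZCCHC17, the called SR proteins and related kinases, the 2 smallest p-values per direction in other lists, and the most alike gene of each kinase (that of SRPK1 is not reported here); other names were chosen after their values were seen.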

Additional observations from a re-analysis of the deposited data

Results flagged for a closer look

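In 30 groups of 6 libraries (8 kinases and 7 ratios in each treatment), 2 held a library far from the rest, by a gap to its neighbour above Dixon's critical value for 6 samples; chance flags about 1 in 20 groups. CLK4 in siNC replicate 3 stood at 4.888 in log2 CPM, against 5.009 to 5.075 in the other siNC libraries (gap 0.649 of the range). The CLK1/CLK3 log2 ratio of siZCC replicate 2 stood at 0.3613, against 0.1385 to 0.213 in the other siZCC libraries (gap 0.666 of the range). Without siZCC replicate 2 the CLK1/CLK3 difference between groups was -0.26.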

How the results depend on the processing

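CLK1 was called under every alternative run, with a log2 fold change of -0.19 to -0.16 without 1 library. Under the other alternatives its log2 fold change was -0.179 to -0.142, smallest in size with GC and length offsets. SRPK1 lost its call with no filter on low counts (-0.10), in the libraries of high (-0.11) or low IL1B (-0.0759) and in 9 of 12 fits without 1 library (range -0.11 to -0.0730). PRPF4B gained one with upper quartile scaling (-0.10), GC and length offsets (-0.0786), the IL1B split as a block (-0.0945) and without 3 single libraries (range -0.11 to -0.0743), and SRPK2 with the offsets (0.0617). CLK4 turned to -0.0171 in the libraries of high IL1B and ran from -0.00820 to 0.0519 without 1 library (negative without siZCC replicate 2, where its mean difference was -0.00788, against up to 0.0501 without another). DYRK1A ran from -0.0206 to 0.00573, above 0 without siNC replicate 5 (0.000575) or 6; its mean difference in log2 CPM was 0.000848 and 0.00487 there, 0.000460 without siZCC replicate 1 and as low as -0.0203 without another library. The correlation of SRPK2 and PRPF4B turned to -0.0674 with upper quartile scaling. The cause was not tested in any of these.

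Kinases called numbered 1 with no filter, with the block and in either IL1B set, 4 with the offsets and 1 to 3 without 1 library. In the sets of high and of low IL1B, with 3 libraries a group, calls were 5 and 4 SR proteins, 1 and 0 SR-related proteins, 0 and 0 related kinases, 2 and 0 phosphatases, 0 and 0 import factors and chaperones, and 1 and 0 DYRK1A partners and DREAM members; the tri-snRNP list had 0 in the low set. No filter gave 3 phosphatases and 0 import factors. The tri-snRNP list had 2 with upper quartile scaling, DESeq2 or the offsets, and the DREAM list 5 with DESeq2 and 6 with the offsets. Without 1 library, calls ran from 6 to 9 SR proteins, 3 to 5 phosphatases (3 without siNC replicate 4), 0 to 1 import factors (0 without replicates 1, 2 or 3 of siNC or 1, 3 or 4 of siZCC) and 3 to 5 DREAM members (5 without siNC replicate 2).

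The labels do not say whether the replicate number was a pairing, and the correlation check cannot decide it. With the number as a block, SRPK1 (-0.0921) lost its call, and 3 phosphatases and 0 import factors were called. The ratios CLK1/CLK2 (-0.13), CLK1/CLK3 (-0.23), CLK1/CLK4 (-0.20), CLK2/CLK3 (-0.11) and SRPK1/SRPK2 (-0.13) had an adjusted p of 0.0875 in the exact test over sign patterns. Without 1 library, CLK1/CLK2 ran from -0.14 to -0.10 and CLK2/CLK3 from -0.12 to -0.0892.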

Other observations

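CLK3P2, a processed pseudogene of CLK3 at chr1:247936061-247937513 (minus strand, GENCODE v29) and singled out after its values were seen, was counted at 15 to 35 in siNC and 4 to 9 in siZCC, with no overlap of the groups. Its log2 fold change was -1.33 (SE 0.281, adjusted p 0.00277 by edgeR's quasi-likelihood test), far from the 0.06 of CLK3 itself. The other pseudogene rows did not pass: the log2 fold change was -0.09 (SE 0.261) for CLK2P1, with 6 to 19 counts, and 0.23 (SE 0.228) for SRPK2P, with 10 to 24 counts.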
